A study of Mus musculus with 6 samples.

Results

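Toll-like receptors are the innate immune sensors through which macrophages, other leukocytes and, for some members, adipocytes detect microbial and damage-associated molecules. The genes described here are *Tlr1*, *Tlr2*, *Tlr3*, *Tlr4*, *Tlr6*, *Tlr7*, *Tlr8*, *Tlr9* and *Tlr13*, together with *Cd14*, the co-receptor that hands lipopolysaccharide to TLR4. They were chosen by name, by matching the NCBI gene identifiers of the deposited read-count table to these mouse symbols, and 10 of 10 were found among the 19790 genes of the table. The tissue was gonadal white adipose tissue (gWAT), a visceral fat depot, of wild-type C57BL/6 mice that carried no transgene or deletion. Of these, 3 had eaten a normal chow diet (NCD) and 3 a high-fat diet (HFD), in both groups over 8 weeks. The mice were male according to the study's methods. The labels put their age at the start of feeding at 6 weeks, whereas the methods put the start of HFD feeding at 8 weeks of age. RNA came from whole tissue, so the cell that held a transcript was not identified, and in such bulk samples fewer cells of a type and less RNA per cell cannot be told apart. The labels do not say that each library came from a separate animal, and p-values measure the spread between these libraries, which are called mice here.

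TLR1, TLR2, TLR4 and TLR6 sit at the cell surface. TLR2 pairs with TLR1 or TLR6 to bind bacterial lipoproteins, and TLR4 binds lipopolysaccharide together with MD-2, the product of *Ly96*. TLR3, TLR7, TLR8, TLR9 and TLR13 act inside endosomes, where TLR3 binds double-stranded RNA, TLR7 and TLR8 single-stranded RNA, TLR9 unmethylated CpG DNA and TLR13 bacterial ribosomal RNA. Signals pass through the adaptors MyD88 or TRIF to NF-κB and interferon regulatory factors. In obesity, macrophages accumulate in visceral fat, and TLR signalling in this tissue is known for its link to inflammation.

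The libraries held between 49575113 and 66360046 counts. Secretory genes of the seminal vesicle, an organ next to this fat depot, took 58.6% of all counts of NCD replicate 1. Their share was 11.2% for replicate 2 and 2.30% for replicate 3 of this diet, and each HFD-fed mouse had 2 to 8 such counts in all. This RNA cannot be told apart from the diet by design, so the comparison of each receptor is given for all 6 mice and again for 5 mice without NCD replicate 1, and other genes are given with the 5-mouse value where it changes a call, a direction or a size. Levels of one gene across mice are given as TMM-scaled CPM, that is, counts relative to the size of the library after edgeR's TMM correction for very abundant genes. The TMM factor was 0.496 for NCD replicate 1 and between 1.02 and 1.27 for the rest. All 10 genes had between 53 and 7763 counts in every library, the fewest for *Tlr6* on NCD, where the relative counting error is largest. The adipocyte genes *Adipoq* and *Plin1* were present in every library, at 532 to 2690 and 287 to 1290 TMM-scaled CPM.

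Most Toll-like receptors were more abundant in gWAT of HFD-fed mice. With edgeR's quasi-likelihood test and Benjamini-Hochberg adjustment over all 15241 genes tested, 7 of the 10 genes were higher on HFD at an adjusted p under 0.05, and none was lower. They were *Tlr1*, *Tlr2*, *Tlr4*, *Tlr6*, *Tlr7*, *Tlr8* and *Tlr13*, and of all genes tested 5.58% were called higher. Without NCD replicate 1, 9 of the 10 were higher, all but *Tlr9*, beside 10.7% of the 15510 genes tested. The median log2 fold change of the 10 genes was 2.2 with 6 mice and 1.92 with 5, against -0.08 and 0.02 for all genes tested. All 10 genes passed the filter on low counts in both fits. For 9 genes, all but *Tlr3*, the lowest HFD-fed mouse exceeded the highest NCD-fed mouse, as it did for 20.5% of all genes. Among the 5 mice this held for 10 of 10, beside 27.9% of all genes.

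All 7 calls held without NCD replicate 1, but they rested on having each of the other mice. With replicate 2 or 3 of the NCD group or replicate 1, 2 or 3 of the HFD group left out of the 6 mice, edgeR called 0 of the 10 genes, although 9 of them were higher at an unadjusted p under 0.05 in each of these 5 fits and all 10 log2 fold changes stayed positive. The lowest adjusted p among the 10 genes was then between 0.0548 and 0.0971. In the same fits between 1 and 6 of all genes tested were called higher, and between 1916 and 2222 were higher at an unadjusted p under 0.05. Of the 5 mice without NCD replicate 1, leaving out HFD replicate 1 gave 10 calls among the 10 genes, HFD replicate 2 gave 6 and HFD replicate 3 gave 7, whereas NCD replicate 2 gave 2 and NCD replicate 3 gave 1. In the last 2 fits a single NCD-fed mouse remained, which was assumed to vary like the HFD-fed mice. In the order given, these 5 fits called 2111, 985, 1038, 245 and 46 of all genes higher. With 6 mice DESeq2 called 9 of the 10 genes and 2153 of all genes higher, and limma-voom called 7 and 743.

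**Figure D1:**
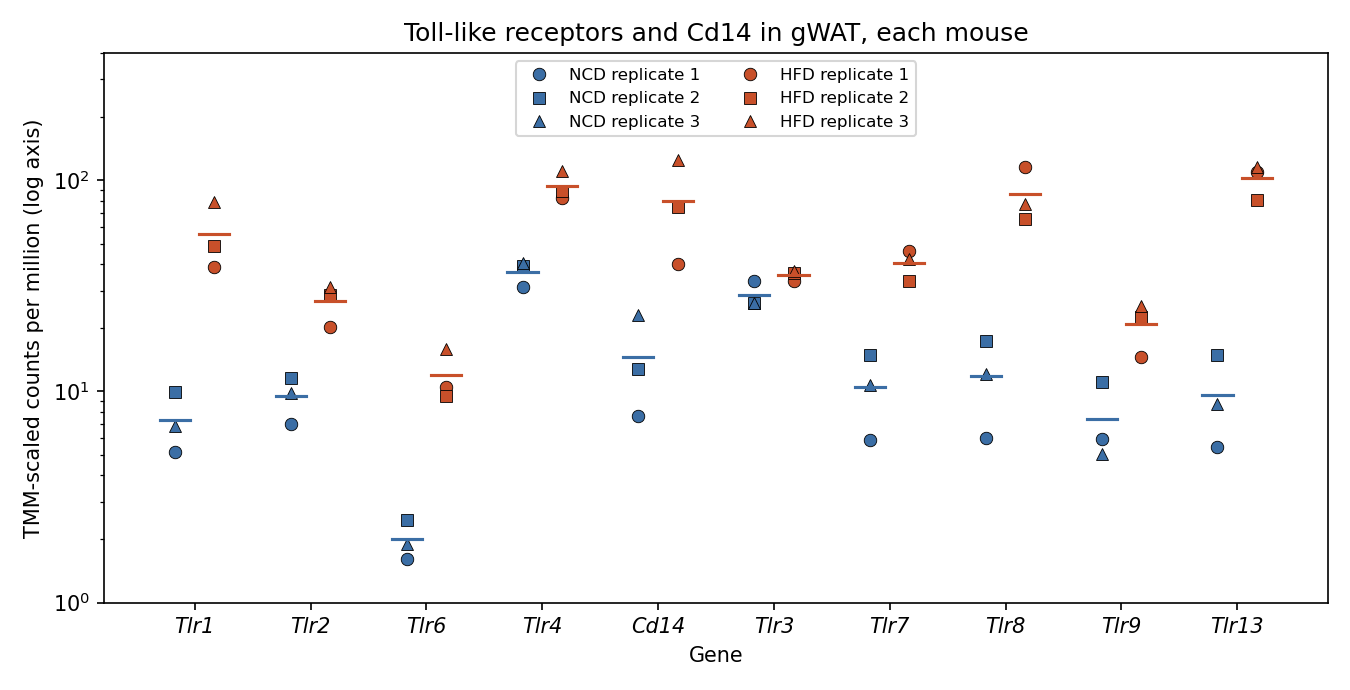
TMM-scaled CPM of *Tlr1* to *Tlr13* and *Cd14* on a log axis in each NCD-fed (blue) and HFD-fed (orange) mouse, with a symbol per replicate and a line at the mean of each diet (n = 3). *Tlr3* alone overlaps between diets, and HFD replicate 1 (orange circles) is the lowest HFD-fed mouse for *Tlr1*, *Tlr2*, *Tlr3*, *Tlr4*, *Tlr9* and *Cd14* but the highest for *Tlr7* and *Tlr8*.

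All 4 surface receptors rose on HFD in the 6-mouse comparison, by 2.54-fold for *Tlr4* to 7.59-fold for *Tlr1*, whereas edgeR called *Cd14* with 5 mice and not with 6. Whether the receptors differed from each other in their change was not tested apart from the ratios given below. *Tlr2* (NCBI gene 24088; chr3:83836272-83841824 in GRCm38.p6), the shared subunit of both lipoprotein receptors, read 6.97, 11.6 and 9.83 TMM-scaled CPM across the NCD-fed mice and 20.2, 28.7 and 31.2 across the HFD-fed mice, in the order of replicates 1, 2 and 3 that is kept throughout. The diets did not overlap, and HFD replicate 1 was the lowest of the HFD-fed mice. Its log2 fold change was 1.5 (SE, the standard error, 0.269, adjusted p = 0.0327 by edgeR), or 2.82-fold, and 1.33 (SE 0.231, adjusted p = 0.0166) without NCD replicate 1. *Tlr1* (NCBI gene 21897; chr5:64924680-64933600) was at 5.18, 9.88 and 6.89 TMM-scaled CPM on NCD and at 38.7, 48.9 and 79.2 on HFD. Its lowest HFD-fed mouse, replicate 1, was well above its highest NCD-fed mouse. For *Tlr1* the log2 fold change was 2.92 (SE 0.375, adjusted p = 0.0219), or 7.59-fold, and 2.75 (SE 0.381, adjusted p = 0.0102) without NCD replicate 1.

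*Tlr6* (NCBI gene 21899; chr5:64953092-64970942), which encodes the other partner of TLR2, was the least abundant of the 10 genes, at 1.61, 2.46 and 1.90 TMM-scaled CPM on NCD and at 10.5, 9.53 and 15.9 on HFD. The diets were separated by a wide gap. For *Tlr6* the log2 fold change was 2.58 (SE 0.314, adjusted p = 0.0212), or 6.00-fold, and 2.47 (SE 0.319, adjusted p = 0.00897) without NCD replicate 1. *Tlr1* and *Tlr6* are neighbours with no other annotated gene in the 19491 bases between them, and they are near-identical over part of their coding sequence. In the GENCODE transcripts, 15.4% of the 50-base windows of *Tlr1* and 12.3% of those of *Tlr6* occurred in another gene, 454 of them shared by the pair, so the reads of each could be partly split between them in counting, and *Tlr6* also overlaps *Fam114a1* and *Mir574*. Of the other receptors, 1 window of *Tlr4* and none of the remaining genes' windows were shared. The ratio of *Tlr1* to *Tlr6*, per length of exon, was 3.78, 4.74 and 4.28 on NCD and 4.37, 6.05 and 5.85 on HFD. The diets overlapped in this ratio, with a log2 difference of 0.34, and 0.25 without NCD replicate 1 (p = 0.2 with 6 mice by a two-sided exact permutation test, adjusted p = 0.25 over 5 ratios).

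*Tlr4* (NCBI gene 21898; chr4:66827551-66846581), the lipopolysaccharide receptor, was among the more abundant members on both diets. It was measured at 31.1, 39.4 and 40.4 TMM-scaled CPM on NCD and at 82.1, 88.5 and 111 on HFD. The diets did not overlap and the mice of each diet lay close together. Its log2 fold change was 1.34 (SE 0.187, adjusted p = 0.0223), or 2.54-fold, and 1.25 (SE 0.17, adjusted p = 0.00987) without NCD replicate 1. *Cd14* (NCBI gene 12475) spread more, from 7.61, 12.8 and 23.1 on NCD to 39.9, 74.7 and 124 on HFD. Each HFD-fed mouse was above each NCD-fed mouse, with a wider spread within both diets than for *Tlr4*. The fitted change of *Cd14* was 2.45 on the log2 scale (SE 0.565, adjusted p = 0.0537), which did not pass the threshold, and 2.16 (SE 0.549, adjusted p = 0.0440) without NCD replicate 1, which did. DESeq2 called it with 6 mice (adjusted p = 0.000219), and limma-voom did not call it with 5 (adjusted p = 0.0543). The ratio of *Cd14* to *Tlr4* per length was 0.817, 1.08 and 1.91 on NCD and 1.62, 2.81 and 3.71 on HFD, with 1 NCD-fed mouse above the lowest HFD-fed mouse. Its log2 difference was 1.11 (p = 0.2 by exact permutation, adjusted p = 0.25), and 0.84 without NCD replicate 1. The ratio of *Tlr2* to *Tlr4* overlapped between diets, at 0.407 to 0.533 on NCD and 0.446 to 0.589 on HFD (log2 difference 0.16, p = 0.4 by exact permutation).

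*Ly96*, which encodes MD-2, the subunit that TLR4 needs to bind lipopolysaccharide, followed *Tlr4* less closely in NCD replicate 1 than in the other mice. It was at 7.98, 3.78 and 4.52 TMM-scaled CPM on NCD and at 7.51, 8.13 and 10.1 on HFD. NCD replicate 1 lay within the range of the HFD-fed mice. The log2 fold change of *Ly96* was 0.66 (SE 0.339, adjusted p = 0.245) with 6 mice and 1.06 (SE 0.226, adjusted p = 0.0279) without NCD replicate 1, so the call depended on this library. The per-length ratio of *Ly96* to *Tlr4* was 2.22, 0.830 and 0.969 on NCD and 0.791, 0.795 and 0.790 on HFD. The log2 difference of this ratio was -0.62 with 6 mice and -0.18 with 5, with p = 0.1 and p = 0.2 by exact permutation, the smallest values that 3 against 3 and 2 against 3 mice allow.

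**Figure D2:**
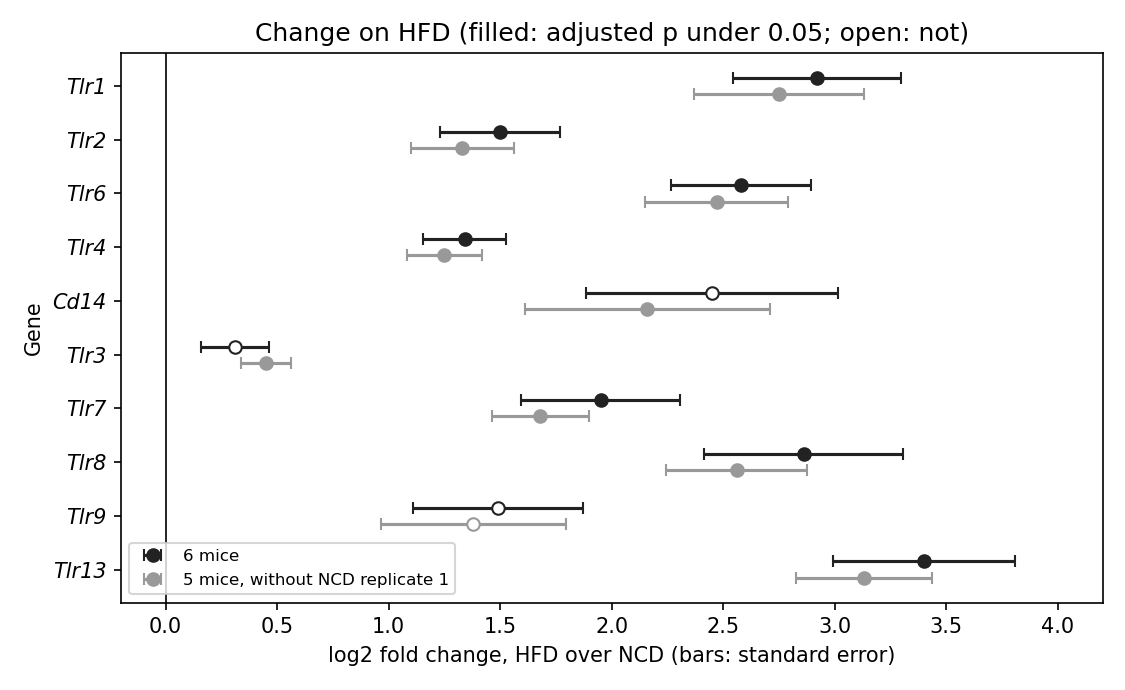
Log2 fold change of each gene on HFD over NCD with its standard error from edgeR, for all 6 mice (black) and for 5 mice without NCD replicate 1 (grey), with filled symbols where the adjusted p was under 0.05. The values run from 0.31 for *Tlr3* to 3.40 for *Tlr13* with 6 mice, and *Tlr9* is open in both fits.

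The endosomal receptors covered the whole range, from the member with the largest log2 fold change to the one with the smallest. *Tlr13* (NCBI gene 279572; chrX:106143275-106160493), the sensor of bacterial ribosomal RNA, was at 5.45, 14.8 and 8.71 TMM-scaled CPM on NCD and at 109, 80.9 and 115 on HFD. The gap between the diets was wide, and HFD replicate 2 was the lowest of the HFD-fed mice. The log2 fold change of *Tlr13* was 3.40 (SE 0.406, adjusted p = 0.0212), or 10.5-fold, higher than that of 99.0% of all genes tested. Without NCD replicate 1 it was 3.13 (SE 0.305, adjusted p = 0.00652). *Tlr8* (NCBI gene 170744; chrX:167241123-167264329) was at 6.00, 17.3 and 12.1 on NCD and at 116, 65.2 and 76.9 on HFD, with HFD replicate 1 the highest mouse. For *Tlr8* the log2 fold change was 2.86 (SE 0.445, adjusted p = 0.0253), or 7.26-fold, and 2.56 (SE 0.315, adjusted p = 0.00838) without NCD replicate 1.

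*Tlr7* (NCBI gene 170743; chrX:167303380-167330574) lies 39050 bases from *Tlr8* with no annotated gene between them, and its product also binds single-stranded RNA. It was at 5.88, 14.9 and 10.7 TMM-scaled CPM on NCD and at 46.2, 33.4 and 42.2 on HFD. The diets did not overlap. Between the diets, *Tlr7* had a log2 fold change of 1.95 (SE 0.358, adjusted p = 0.0346), or 3.86-fold, and 1.68 (SE 0.218, adjusted p = 0.00903) without NCD replicate 1. The balance of these neighbours did not overlap between the diets. The per-length ratio of *Tlr7* to *Tlr8* was 0.848, 0.743 and 0.767 on NCD and 0.346, 0.443 and 0.475 on HFD. All NCD-fed mice lay above all HFD-fed mice, and the log2 difference of -0.91 gave p = 0.1 by exact permutation, the smallest that 3 against 3 allows, with an adjusted p of 0.25 over 5 ratios. Without NCD replicate 1 the difference was -0.85.

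*Tlr9* (NCBI gene 81897; chr9:106222598-106226876), the CpG DNA sensor, was at 5.97, 11.1 and 5.06 TMM-scaled CPM on NCD and at 14.5, 22.5 and 25.5 on HFD. The diets did not overlap, but NCD replicate 2 came near HFD replicate 1. Its log2 fold change was 1.49 (SE 0.380, adjusted p = 0.0658), or 2.82-fold, and 1.38 (SE 0.413, adjusted p = 0.0667) without NCD replicate 1, and neither passed the threshold. With HFD replicate 1 left out as well it was 1.56 (adjusted p = 0.0422). DESeq2 called *Tlr9* higher with 6 mice (adjusted p = 0.00278) and with 5 (adjusted p = 0.00676). By limma-voom it was not called (adjusted p = 0.0702 and 0.0694). *Tlr3* (NCBI gene 142980; chr8:45395665-45411075), the double-stranded RNA sensor and the receptor that signals through TRIF alone, was at 33.3, 26.2 and 26.2 on NCD and at 33.2, 36.2 and 37.0 on HFD. NCD replicate 1 was level with HFD replicate 1, and the other NCD-fed mice were below all HFD-fed mice. The log2 fold change of *Tlr3* was 0.31 (SE 0.153, adjusted p = 0.228) with 6 mice and 0.45 (SE 0.112, adjusted p = 0.0412) with 5. The second value was no longer past the threshold with upper-quartile scaling (adjusted p = 0.0511) or without the filter on low counts (adjusted p = 0.0503).

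The bases upstream of the start sites of *Tlr13*, *Tlr8* and *Tlr9* are shown because all 3 hold GAGGAA. These are the core letters bound by PU.1, the myeloid transcription factor encoded by *Spi1*. *Tlr13* and *Tlr8* were the endosomal genes with the largest log2 fold changes, and *Tlr9* was the gene that edgeR called in neither fit. Sequences are RefSeq's for GRCm38.p6, 5′ to 3′ on the strand of the gene, with GAGGAA or its reverse complement TTCCTC in capitals. The windows are chrX:106143025-106143203 on the plus strand for *Tlr13*, given as the first 179 of its 250 upstream bases up to the first annotated GENCODE exon, chrX:167264330-167264579 on the minus strand for *Tlr8* and chr9:106222348-106222597 on the plus strand for *Tlr9*.
Tlr13: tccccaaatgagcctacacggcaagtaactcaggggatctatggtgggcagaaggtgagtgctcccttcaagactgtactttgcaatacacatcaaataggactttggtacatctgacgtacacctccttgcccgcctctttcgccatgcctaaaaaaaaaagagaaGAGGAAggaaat
Tlr8: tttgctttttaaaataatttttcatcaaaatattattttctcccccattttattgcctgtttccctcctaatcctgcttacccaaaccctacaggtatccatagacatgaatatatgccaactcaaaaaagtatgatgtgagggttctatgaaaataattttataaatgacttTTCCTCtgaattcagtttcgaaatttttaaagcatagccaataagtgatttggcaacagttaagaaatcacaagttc
Tlr9: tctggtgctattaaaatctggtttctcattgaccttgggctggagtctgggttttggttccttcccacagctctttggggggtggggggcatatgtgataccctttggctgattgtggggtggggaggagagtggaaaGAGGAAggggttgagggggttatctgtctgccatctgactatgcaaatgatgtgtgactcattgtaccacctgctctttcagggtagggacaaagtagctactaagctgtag

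Over the 250 bases upstream of each annotated start, on both strands, GAGGAA occurred in 4 of the 9 windows of the 7 receptor genes that the RefSeq table holds (*Tlr1*, *Tlr2*, *Tlr3*, *Tlr6*, *Tlr8*, *Tlr9* and *Tlr13*). The fourth was 1 of the 2 windows of *Tlr1*, where the letters began 23 bases before that start and within the annotated bounds of the gene. Windows of *Tlr1*, *Tlr2*, *Tlr3*, *Tlr6* and *Tlr13* overlapped their own gene as annotated in GENCODE. It occurred in 22.9% of 18501 such windows of 14900 genes of the count table. The AP-1 letters TGANTCA, where N is any base, were found in 1 of the 9 windows, that of *Tlr9*, and in 5.42% of all windows. The C/EBP letters TTGCNNNAA were found in 1 window of *Tlr6* and in 6.99% of all windows. A match of letters is a description of the sequence and not a measured binding site.

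Between genes, levels were compared as FPKM computed from the counts, the total counts of the library and the exon length. On NCD, *Cd14* had the highest mean FPKM at 8.46 ± 6.42 (SD, n = 3), followed by *Tlr4* at 6.03 ± 2.80 and *Tlr3* at 5.30 ± 1.42. *Tlr8* at 3.27, *Tlr2* at 2.85, *Tlr7* at 2.49, *Tlr13* at 2.23, *Tlr1* at 2.14 and *Tlr9* at 1.89 came next, and *Tlr6* was the lowest at 0.485 ± 0.240. The ranges of neighbours in this order overlapped between mice except for *Tlr9* and *Tlr6*. On HFD the order was *Cd14* at 60.3 ± 33.7, *Tlr13* at 30.7 ± 5.47, *Tlr8* at 30.4 ± 7.74, *Tlr1* at 22.1 ± 9.11 and *Tlr4* at 21.1 ± 4.22, then *Tlr7* at 12.5, *Tlr2* at 10.9, *Tlr3* at 9.71, *Tlr9* at 7.41 and *Tlr6* at 4.01 ± 1.28. Of the neighbours on HFD, *Tlr4* and *Tlr7* did not overlap. With TMM library sizes in place of the totals the order was the same on both diets, and *Tlr3* and *Tlr8* on NCD and *Tlr3* and *Tlr9* on HFD did not overlap either. By these means *Tlr3* was the third of the 10 genes on NCD and the eighth on HFD. *Tlr13* was the seventh on NCD, where it exceeded the next gene, *Tlr1*, in 1 of 3 mice, and the second on HFD, where it exceeded the next gene, *Tlr8*, in 2 of 3.

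The make-up of the receptor transcripts can be given as shares within a library, which need no scaling between libraries. These shares were formed after the values had been seen and are given without a test. Of the summed FPKM of the 9 TLR genes, *Tlr3* and *Tlr4* together held 55.0%, 35.9% and 45.5% in NCD replicates 1, 2 and 3 and 18.6%, 22.9% and 20.8% in HFD replicates 1, 2 and 3. *Tlr8* and *Tlr13* together held 13.0%, 23.9% and 19.5% on NCD and 50.1%, 36.8% and 37.0% on HFD. In both pairs the diets did not overlap. The 5 endosomal receptors as a whole held 57.6%, 59.1% and 54.0% on NCD and 69.4%, 58.4% and 56.1% on HFD, where the diets overlapped. *Tlr1* held 6.97% to 8.71% on NCD and 10.3% to 18.5% on HFD, and *Tlr7* held 6.23% to 10.3% on NCD and 7.75% to 9.66% on HFD.

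**Figure D3:**
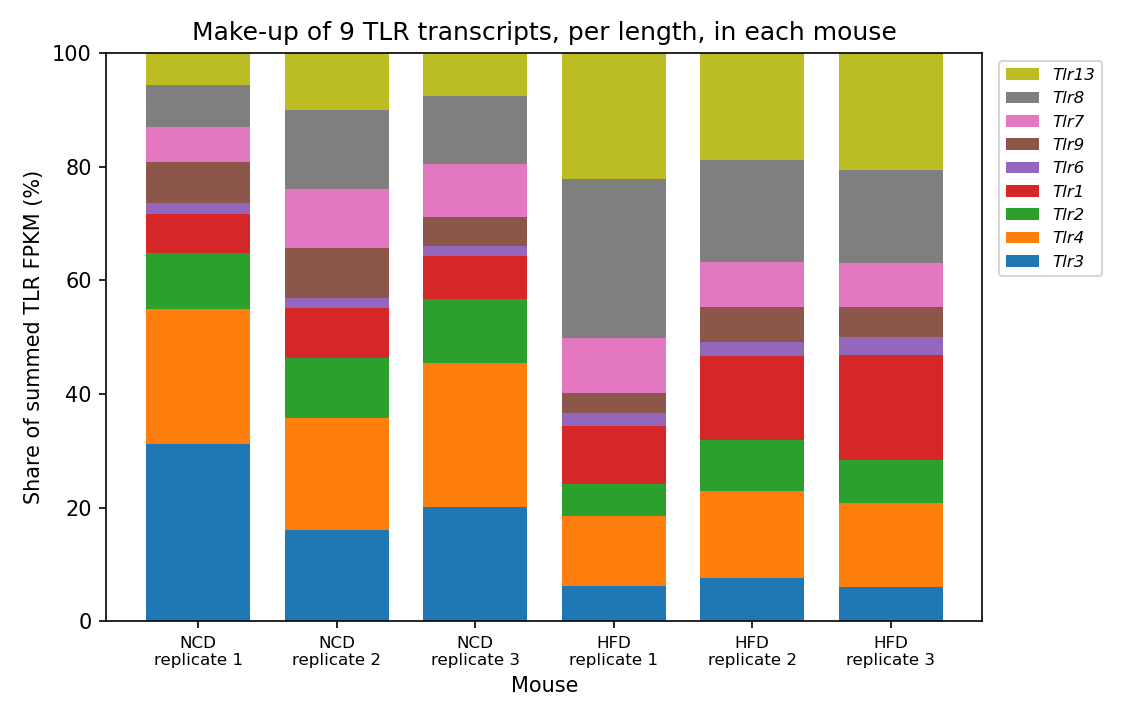
Share of each gene in the summed FPKM of 9 TLR genes, stacked to 100% in each mouse. *Tlr3* and *Tlr4* at the bottom of the bars held 35.9% to 55.0% in NCD-fed mice and 18.6% to 22.9% in HFD-fed mice, and *Tlr8* and *Tlr13* at the top held 13.0% to 23.9% and 36.8% to 50.1%.

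Macrophage markers rose in part together with the receptors. For this and each later list, the share of all genes called higher was 5.58% with 6 mice and 10.7% with 5. At an unadjusted p under 0.05 by edgeR, 2436 of 15241 genes were higher with 6 mice and 3028 of 15510 with 5. The summed level of 12 macrophage markers was 777, 1470 and 1260 TMM-scaled CPM on NCD and 5200, 2960 and 3740 on HFD, and 5 of the 12 (*Adgre1*, *Cd68*, *Itgam*, *Fcgr1* and *Aif1*) were called higher with 6 mice and 8 with 5, when *Aif1* was not among them (adjusted p = 0.0501). *Adgre1*, which encodes the macrophage surface protein F4/80, was at 25.5, 57.2 and 36.2 on NCD and at 418, 211 and 233 on HFD. *Cd68* was at 20.2, 52.5 and 36.5 on NCD and at 467, 238 and 279 on HFD, with a fitted log2 change of 3.17 (SE 0.456, adjusted p = 0.0231). Both were highest in HFD replicate 1, as *Tlr8* was, whereas *Itgam*, *Mrc1*, *Fcgr1* and *Aif1* were lowest there among the HFD-fed mice. *Cd163* and *Mertk* were called in neither comparison, with log2 fold changes of -0.07 and 0.23 with 6 mice and -0.38 and 0.08 with 5. The part of the macrophage markers in the receptor changes was not tested beyond the ratios that follow.

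Relative to the summed macrophage marker counts of the same library, 3 receptors were higher in every HFD-fed mouse and 1 was lower in every HFD-fed mouse. The sum was of raw counts, so abundant markers weighed most. In HFD replicate 1, *Lyz2* had 85059 counts and *Cd74* 86775, against 26908 for *Cd68*. With 6 mice the log2 fold changes were 1.65 for *Lyz2* and 1.25 for *Cd74*, neither called. Those of *Cd68* and *Adgre1* were 3.17 and 2.86, against 2.86 for *Tlr8*. Without NCD replicate 1, *Lyz2* was called higher at 1.34 (adjusted p = 0.0421 by edgeR). The result therefore holds for this sum, and ratios to single markers were not tested. *Tlr13* counts were 0.701%, 1.00% and 0.689% of the marker counts on NCD and 2.1%, 2.73% and 3.09% on HFD. *Tlr8* was at 0.772%, 1.18% and 0.958% on NCD and at 2.22%, 2.2% and 2.06% on HFD. *Tlr1* was at 0.545% to 0.672% on NCD and at 0.745% to 2.12% on HFD. For these 3 genes all HFD-fed mice lay above all NCD-fed mice. How many of all genes separated in this ratio was not counted. The log2 differences of the ratio were 1.73 for *Tlr13*, 1.18 for *Tlr8* and 1.14 for *Tlr1*, each with p = 0.1 by a two-sided exact permutation test, the smallest value possible, and an adjusted p of 0.25 over the 10 genes.

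*Tlr3* moved the other way relative to the markers, from 4.28%, 1.78% and 2.08% on NCD to 0.639%, 1.22% and 0.990% on HFD. All HFD-fed mice lay below all NCD-fed mice, with a log2 difference of -1.45 (p = 0.1 by exact permutation, adjusted p = 0.25) and of -1.07 without NCD replicate 1. For the other genes the diets overlapped in this ratio. The log2 differences were 0.80 for *Tlr6*, 0.68 for *Cd14*, 0.27 for *Tlr7*, -0.23 for *Tlr9*, -0.27 for *Tlr2* and -0.43 for *Tlr4*, with p between 0.2 and 0.9 by exact permutation. Without HFD replicate 1, which had the highest marker sum, the difference became 0.14 for *Tlr2* and 0.23 for *Tlr9*. With 5 mice *Tlr6* no longer overlapped (log2 difference 0.93, p = 0.2 by exact permutation, the smallest possible).

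**Figure D4:**
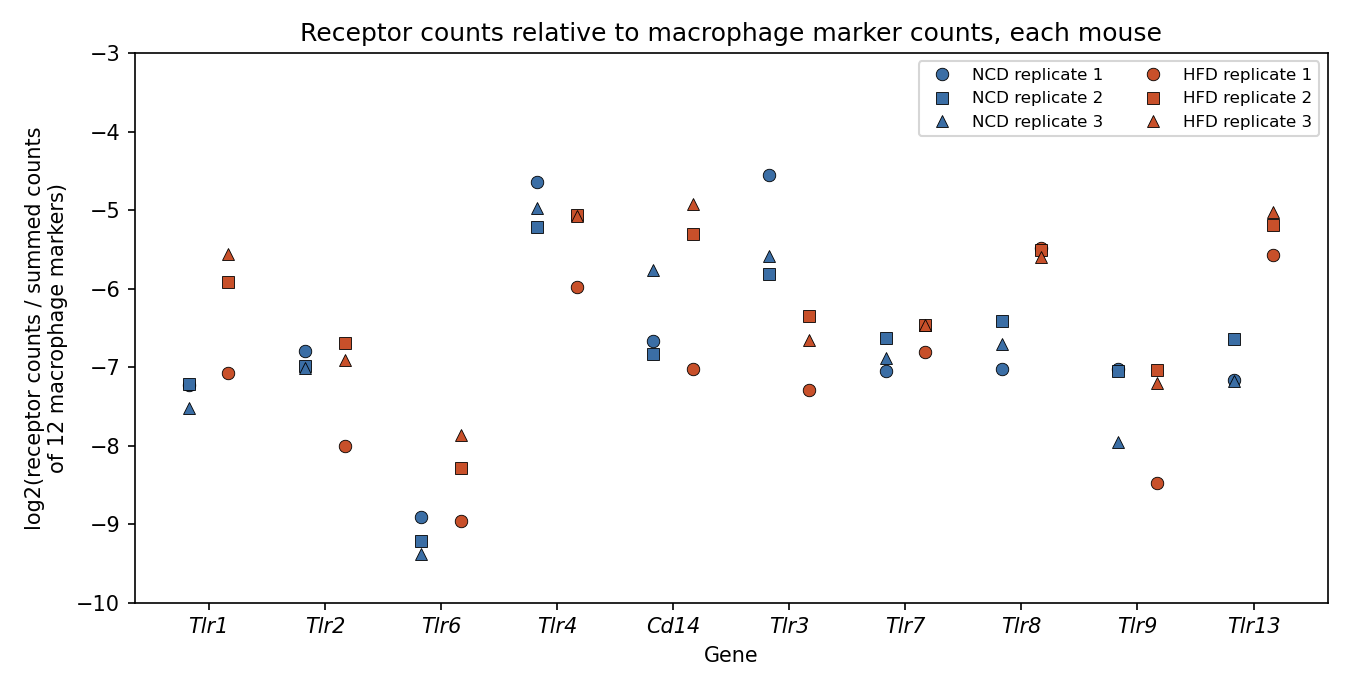
Log2 of each gene's counts over the summed counts of 12 macrophage markers in the same library, for each NCD-fed (blue) and HFD-fed (orange) mouse. *Tlr1*, *Tlr8* and *Tlr13* are higher in every HFD-fed mouse and *Tlr3* is lower in every HFD-fed mouse, while the diets overlap for the other 6 genes.

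Of the markers of other leukocytes that carry Toll-like receptors, 1 was called with 6 mice. The summed level of 10 neutrophil markers was 4.96, 8.40 and 6.70 TMM-scaled CPM on NCD and 17.0, 83.7 and 187 on HFD, most of it from *Csf3r*, the receptor for granulocyte colony-stimulating factor and the marker that was called. With 5 mice edgeR called 0 of the 6 markers tested, 4 were higher at an unadjusted p under 0.05, and DESeq2 called 4. *Ly6g* and *Mpo* of this list had levels between 0 and 0.175. *Cxcr2*, a chemokine receptor of mature neutrophils, was at 0 to 0.201 on NCD and at 0.104, 10.5 and 26.6 on HFD, and *Mmp8* and *Retnlg* were likewise at most 0.112 on NCD and highest in HFD replicate 3, at 8.53 and 5.99. *Csf3r* was at 4.02, 7.74 and 5.51 on NCD and at 15.8, 66.2 and 145 on HFD. Like *Tlr1* and *Cd14*, it was lowest in HFD replicate 1 and highest in HFD replicate 3. The macrophage markers *Itgam*, *Mrc1*, *Fcgr1* and *Aif1* had this order too. *Adgre1*, *Cd68*, *Csf1r*, *Lyz2*, *Itgax*, *Cd74*, *Mertk* and *Tlr8* were highest in HFD replicate 1, so the macrophage markers did not share a single order. Of 8 B cell and 7 T cell markers, edgeR called none in either direction, none had an unadjusted p under 0.05 with 6 mice, and DESeq2 also called 0. The summed B cell level was 6.73 to 23.0 on NCD and 7.49 to 22.9 on HFD. Of 10 dendritic cell markers edgeR called 0, with 3 higher and 1 lower at an unadjusted p under 0.05, and DESeq2 called 2 higher and 1 lower; their sum was 26.0 to 33.8 on NCD and 32.7 to 44.5 on HFD. The part of these cells in the receptor changes was not tested.

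The other 3 mouse receptor genes did not pass the test. *Tlr5*, the flagellin receptor, was at 3.26, 4.40 and 4.37 TMM-scaled CPM on NCD and at 5.43, 11.9 and 9.95 on HFD, without overlap, and its log2 fold change was 1.18 (SE 0.347, adjusted p = 0.0871). *Tlr11* was at 1.00 to 1.37 on NCD and 1.34 to 2.15 on HFD, with a log2 fold change of 0.48 (adjusted p = 0.386). *Tlr12* was at 0.279 to 1.80 on NCD and 0.336 to 0.478 on HFD, with a log2 fold change of -1.18 (adjusted p = 0.308) with 6 mice. Its highest library was NCD replicate 1, and without it the value was -0.24 (adjusted p = 0.789). By edgeR 0 of these 3 genes were called, 1 had an unadjusted p under 0.05, and DESeq2 called 1.

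Genes that place the receptors in endosomes or assist them rose in part. The counts of this and the following pathway lists stand beside 5.58% of all genes called higher with 6 mice and 10.7% with 5. Of 16 co-receptors and chaperones, 7 were called higher with 6 mice (*Cd180*, *Ly86*, *Unc93b1*, *Slc15a3*, *Lgmn*, *Ctss* and *Ctsl*), 13 were higher with 5, and none was lower, with a median log2 fold change of 1.67. *Unc93b1*, the chaperone that carries the endosomal receptors from the endoplasmic reticulum, was at 53.5, 91.9 and 81.5 on NCD and at 295, 222 and 284 on HFD, a fitted log2 change of 1.82 (SE 0.260, adjusted p = 0.0228). *Ctss* and *Lgmn*, proteases that cleave endosomal receptors into their active form, had log2 fold changes of 3.20 (SE 0.347) and 3.18 (SE 0.410). *Slc15a3*, an endolysosomal peptide and histidine transporter, had 3.59 (SE 0.359, adjusted p = 0.0194), the largest of the list. *Cd180*, a TLR4-related surface protein, and its partner *Ly86* had 2.69 and 1.79. *Lbp*, which delivers lipopolysaccharide to CD14, was at 46.0, 144 and 150 on NCD and 263, 222 and 277 on HFD, with a log2 fold change of 1.16 (adjusted p = 0.15) that passed the threshold without NCD replicate 1 at 0.80 (adjusted p = 0.0214).

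Of 22 adaptors and kinases of the core signalling machinery, edgeR called 5 higher with 6 mice (*Ticam2*, *Irak4*, *Pik3ap1*, *Btk* and *Syk*), where 5.58% of all genes were, and 7 with 5 mice, where 10.7% were. It called none lower, 1 was lower at an unadjusted p under 0.05 with 6 mice, and DESeq2 called 9 higher and 1 lower. The median log2 fold change was 0.21. *Myd88*, the adaptor of every receptor here but TLR3, was at 30.8, 33.0 and 30.2 TMM-scaled CPM on NCD and at 46.1, 75.9 and 121 on HFD. The diets did not overlap and HFD replicate 3 was the highest, with a fitted log2 change of 1.37 (SE 0.349, adjusted p = 0.0656). *Ticam1*, which encodes TRIF, had a log2 fold change of -0.03 (adjusted p = 0.968) with 6 mice, but without NCD replicate 1, its highest library in TMM-scaled CPM, it was called higher at 0.53 (adjusted p = 0.0440). *Tirap* had -0.67 (adjusted p = 0.416) with 6 mice and -0.17 with 5, and *Traf6* -0.39 (adjusted p = 0.224) and -0.19. *Ticam2*, which links TLR4 to TRIF, was at 1.89, 5.25 and 4.45 on NCD and 17.9, 14.9 and 17.3 on HFD, with 2.11 (SE 0.398, adjusted p = 0.0359). *Pik3ap1*, *Syk* and *Btk*, signalling genes of leukocytes that also act outside this pathway, had log2 fold changes of 2.84, 2.74 and 2.37, and *Irak4*, the kinase that MyD88 recruits, had 1.16 (SE 0.171, adjusted p = 0.0235).

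Of 13 transcription factors, 5 were called higher with 6 mice (*Rel*, *Irf5*, *Irf8*, *Fos* and *Spi1*) and 8 with 5, none was lower, and the median log2 fold change was 0.99. *Spi1* was at 7.95, 18.3 and 13.4 TMM-scaled CPM on NCD and at 88.2, 70.5 and 94.0 on HFD, with a fitted log2 change of 2.67 (SE 0.334, adjusted p = 0.0214). *Irf5*, an interferon regulatory factor downstream of MyD88, had 2.30 (SE 0.312, adjusted p = 0.0219). *Irf7*, which drives interferon genes after TLR7 and TLR9, was at 149 to 286 on NCD and 230 to 480 on HFD, with overlap, and had 0.93 (adjusted p = 0.177). Of 12 negative regulators, 2 were called higher with 6 mice, *Irak3* at 0.87 (SE 0.177, adjusted p = 0.0428) and *Tnip1* at 1.09 (SE 0.148, adjusted p = 0.0219), and 4 with 5 mice. None of these was lower, and the median of this list was 0.80.

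Of 10 endogenous ligands proposed for TLR2 or TLR4, 3 were called higher with 6 mice: *Saa3*, an acute-phase protein, at 4.13 (SE 0.906, adjusted p = 0.0495), and the matrix genes *Bgn* at 1.68 (SE 0.231, adjusted p = 0.0223) and *Tnc* at 1.40 (SE 0.263, adjusted p = 0.0359). *S100a8* and *S100a9*, the subunits of calprotectin that are abundant in neutrophils and monocytes, were at 0 to 1.17 TMM-scaled CPM on NCD. *S100a8* was at 3.88, 24.9 and 76.6 on HFD (log2 fold change 5.74, SE 1.28, adjusted p = 0.0508), and *S100a9* at 0.416, 50.7 and 164, where HFD replicate 1 lay within the NCD range of 0 to 0.435. With 5 mice 5 were higher, *S100a8* among them (adjusted p = 0.0492), and *Hspd1*, a mitochondrial chaperone, was lower, as were 1569 of all 15510 genes tested. Of 17 inducible targets tested, 5 were higher with 6 mice (*Tnf*, *Ccl2*, *Ccl3*, *Cd80* and *Cd86*), 6 with 5, and none was lower, while *Ifnb1*, the interferon-beta gene, had too few counts to be tested. *Tnf* was low throughout, at 0.335, 1.15 and 0.651 TMM-scaled CPM on NCD and 3.88, 3.48 and 4.37 on HFD, and its log2 fold change was 2.44 (SE 0.490, adjusted p = 0.0417). *Ccl2*, a chemokine for monocytes, had 3.58 (SE 0.615, adjusted p = 0.0293).

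HFD replicate 1 stood apart in part of the inducible genes. *Il1b* was at 1.02 TMM-scaled CPM there, within the NCD range of 0.518 to 1.51, and at 64.1 and 132 in HFD replicates 2 and 3. *Il6* was at 0.399 there, against 0 to 0.391 on NCD and 2.79 and 5.04 in the other HFD-fed mice. The summed level of the inducible targets was 51.2, 82.9 and 82.8 on NCD and 135, 412 and 766 on HFD. The mouse with the highest *Tlr8* and the highest macrophage marker sum thus had the lowest inducible sum of the HFD-fed mice. Of the markers in that sum, however, *Itgam*, *Mrc1*, *Fcgr1* and *Aif1* were lowest in this mouse. Of the inducible genes, *Tnf* and *Nos2* were not lowest in it. The log2 fold changes of *Il1b* and *Il6* were 6.03 (SE 1.62, adjusted p = 0.0738) and 3.38 (SE 1.3, adjusted p = 0.148), and neither was called. The calls of the 6 pathway lists in the 6-mouse comparison were lost when any mouse but NCD replicate 1 was left out. In these fits edgeR called 0 of the 90 pathway genes tested. At an unadjusted p under 0.05, 48 to 58 of them were higher, beside 1916 to 2222 of all genes.

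**Figure D5:**
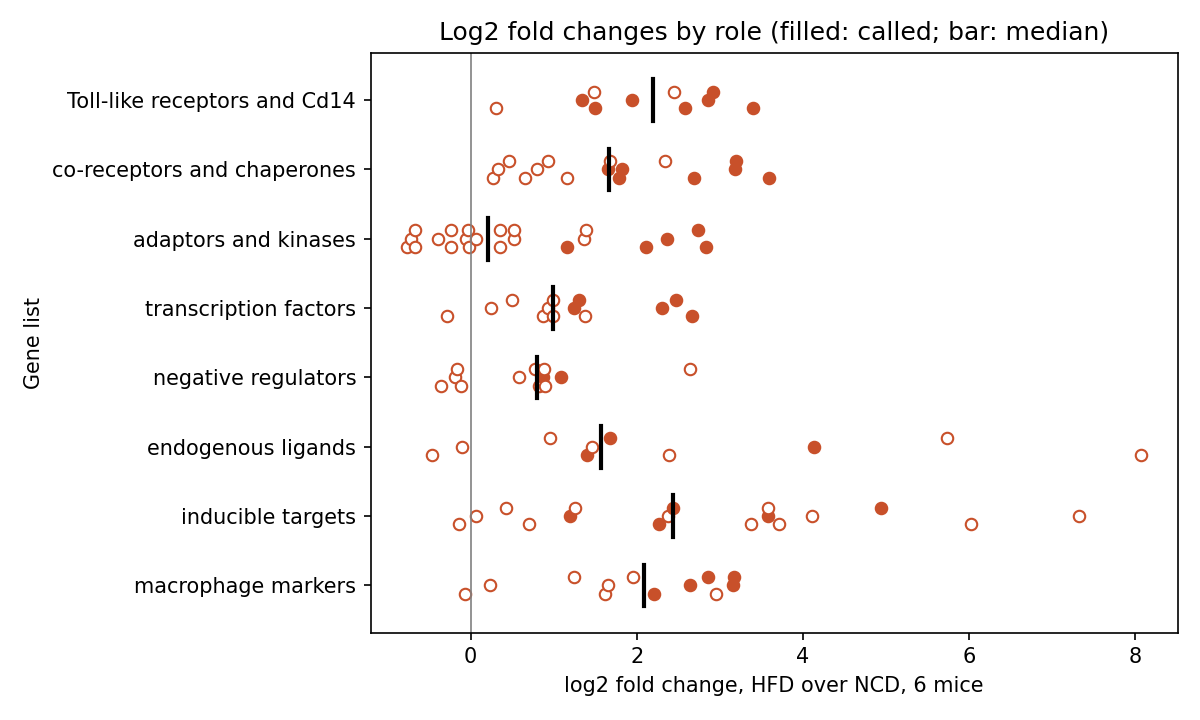
Log2 fold change on HFD over NCD with 6 mice for each tested gene of the receptor, pathway and macrophage marker lists, filled where the gene was called higher, with a bar at the median of each list. The median was 2.2 for the receptors, 1.67 for co-receptors and chaperones, 0.21 for adaptors and kinases and 2.09 for the macrophage markers.

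The genes whose levels followed each receptor most closely over the 6 mice were listed by the root mean square difference of log2 TMM-scaled CPM after each gene was centred on its mean. For *Tlr13* they were *Slc15a3* (0.10), *C3ar1* (0.132) and *Hk3* (0.146), for *Tlr8* *Atp8b4* (0.104), *Slc11a1* (0.117) and *Ptafr* (0.118), and for *Tlr7* *Mcub* (0.0875), *C1qb* (0.0926) and *Hcls1* (0.0972). For *Tlr1* they included *Fcgr4* (0.0671) and *Pstpip1* (0.112), and for *Tlr6* they were *Nlrp1b* (0.0504), *Lair1* (0.106) and *Zc3h12d* (0.119). *Tlr4* was closest to *Rbpj* (0.0663), *Skap2* (0.0887) and *Bach1* (0.0947), *Tlr2* to *Mfsd7a* (0.0730), *Itprip* (0.0819) and *Bmp1* (0.0822), and *Tlr3* to *Lama5* (0.0381), *Tk2* (0.0439) and *Pigt* (0.0505). The 3 genes nearest to *Tlr9* were all of the 2′,5′-oligoadenylate synthetase family, *Oas1a* (0.0948), *Oas1g* (0.139) and *Oasl1* (0.164). No gene followed *Cd14* closely, the nearest being *AA467197* (0.213), *Fpr2* (0.243) and *Pilra* (0.251). These are likenesses over 6 libraries of 2 diets, many genes lay nearly as close, and they carry no test.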

How the data were processed

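Read counts per gene were deposited by the authors for 6 gWAT libraries in 1 table, as raw and not normalized values. The submitters' processing notes name bcl2fastq 2.20.0, Trimmomatic, HISAT2 2.1.0, StringTie 1.3.4d and DESeq2 and the builds mm10 and GRCm38. How the counting treated strand, and which annotation it used, was not given in the sources used here. Columns were matched to samples through the labels' own names, in which HFD replicate 3 is numbered 4, and 0 columns had no sample. Of 19790 identifiers, 19742 had a symbol, and the other 48 held 0.629% of the counts. The methods name the TruSeq mRNA kit and the labels its stranded version.

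In edgeR 4.0.16 (R 4.3.3) a filter on low counts (filterByExpr with a minimum count of 10 and a minimum total of 15) and TMM scaling came before the quasi-likelihood fit and test (glmQLFit, glmQLFTest). P-values were adjusted by Benjamini-Hochberg over all genes tested, at a threshold of 0.05. Standard errors are the size of the log2 fold change over the square root of F. FPKM was computed per 1000 bases of GENCODE vM21 basic exon length. Ratios within a library were compared by two-sided exact permutation tests (scipy 1.17.1), which cannot give p below 0.1 for 3 against 3 or 0.2 for 2 against 3. The alternatives were other scalings, no filter, DESeq2 1.42.0, limma-voom (limma 3.58.1), removal of the 11 seminal vesicle genes, a replicate block and leaving out each mouse. The edgeR procedure was tested on simulated data. No replicate was a duplicate, since pairs within a diet had a chi-square of 111 to 3440 for each degree of freedom. Depth was 49575113 to 66360046 counts per library.

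The receptors and the gene lists were chosen with earlier results of these data known. Named by rule were all 10 members, *Tlr5*, *Tlr11*, *Tlr12*, 19 pathway and macrophage genes picked by role, up to 4 called genes per list with the largest changes, and the 3 genes most like each member, of which 1 is not reported here. *Ly6g*, *Mpo*, *Cxcr2*, *Mmp8*, *Retnlg*, *S100a8*, *S100a9*, *Rel*, *Hspd1*, *Adipoq*, *Plin1* and other list members named in counts were named after their values were seen. Plots used matplotlib 3.10.9 (Python 3.11.15).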

Additional observations from a re-analysis of the deposited data

How the results depend on the processing

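The log2 fold changes of the 10 genes were positive under every alternative run, from 0.25 for *Tlr3* to 3.84 for *Tlr13* with 6 mice and from 0.41 to 3.55 for the same genes with 5. The number of members called higher with 6 mice was 4 with total counts in place of TMM, under which the median log2 fold change over all genes was 0.45 and not -0.08, and 0 to 9 when a mouse was left out. All genes called higher numbered 2153 and pathway genes 55 with DESeq2, against 850 and 27, and leaving out a mouse gave 1 to 1665 and 0 to 43. With 5 mice, total counts gave 2544 genes and DESeq2 2805, against 1665, and leaving out a mouse gave 1 to 10 members, 46 to 2111 genes and 5 to 59 pathway genes. Among all calls with 5 mice, 51.5% were higher with TMM and 72.7% with total counts. With the replicate block and 6 mice edgeR called 0 members, 5 genes and 0 pathway genes, although 9 members, 2181 genes and 52 pathway genes were higher at an unadjusted p under 0.05; DESeq2 and limma-voom were not run with the block. Same-numbered mice did not deviate together (correlations of -0.06, -0.05 and 0.01), and the other pairs had -0.05 to 0.08. With 3 mice per diet and seminal vesicle RNA in the NCD-fed mice, this check cannot decide whether the mice were paired. With the block and 5 mice 9 members, now with *Tlr9* and without *Tlr3*, and 1831 genes were higher. Leaving out a mouse moved the log2 ratio to the macrophage markers between -0.53 and 0.14 for *Tlr2* and between -0.54 and 0.23 for *Tlr9*, which were above 0 only without HFD replicate 1. The causes of these differences were not tested.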

Other observations

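Markers of the other cells of the fat depot were counted in the same way. Of 10 adipocyte markers, edgeR called 0 with 6 mice, 2 were lower at an unadjusted p under 0.05 and DESeq2 called 2 lower, while 5 were called lower without NCD replicate 1. These 5 were *Plin1*, *Lipe*, *Pparg*, *Retn* and *Cfd*. Of all genes tested, edgeR called 289 of 15241 lower with 6 mice and 1569 of 15510 with 5, and DESeq2 called 1751 lower with 6 mice. *Pparg*, the master regulator of adipocyte differentiation, was at 53.6, 253 and 295 TMM-scaled CPM on NCD and at 136, 137 and 105 on HFD, and its log2 fold change was -0.67 (adjusted p = 0.473) with 6 mice and -1.11 (adjusted p = 0.0123) with 5. The summed adipocyte level was 5820 in NCD replicate 1 and 22000 and 30100 in NCD replicates 2 and 3, against 12600 to 16600 on HFD. Of 8 stromal progenitor markers edgeR called 1 higher in both comparisons, *Col1a1*, with 5 higher at an unadjusted p under 0.05 with 6 mice and 4 called by DESeq2. Of 6 mesothelial markers edgeR called *Msln* higher in both, with 3 higher at an unadjusted p under 0.05 with 6 mice and 2 called by DESeq2. Of 6 endothelial markers edgeR called *Pecam1* higher with 5 mice and 0 with 6, where 0 had an unadjusted p under 0.05 and DESeq2 called 0.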
